A study of Mus musculus with 4 samples.

Results

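Imprinted genes are genes whose RNA comes mainly from the allele inherited from 1 parent. The set described here held 44 named mouse imprinted genes. Its members were chosen by name and by their mean level over the 4 libraries, which had to reach 10 normalized counts, and 41 of the 44 did so, out of 15809 genes at that level and 55397 genes listed. Near the limit, Nap1l5 (14.9), Rtl1 (15.5) and Phlda2 (15.5) were the lowest inside it, and Rasgrf1 (3.0) was the highest outside it. Every tested member had a mean above 10 normalized counts in each group. Snurf was listed at 0 in every library; its exons lie inside those of Snrpn. Nespas was not listed under that symbol. The same Ensembl gene was listed as Gnasas1, with 18.7 and 15.6 normalized counts under the Prox1 KO label and 13.8 and 7.5 in the controls, and was not counted.

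Bulk RNA-seq was done on primary mouse embryonic fibroblasts (MEFs) of C57BL/6J embryos at day 13.5 of gestation, all of which carried the conditional Prox1(fl/fl) alleles. All cultures received 4in1, a lentivirus that encodes transcription factors used to turn fibroblasts into hepatocyte-like cells, and RNA was taken on day 14 of reprogramming. The 2 libraries labelled Prox1 KO also received a lentivirus with a GFP-Cre recombinase, and the 2 control libraries received GFP-dCre, a recombinase without function. Lentiviral Cre reaches only transduced cells, and the labels mention no sorting, so a library can hold cells that were not recombined or not reprogrammed. The labels do not say whether replicates 1 and 2 were separate cultures or embryos, so the p-values measure the spread between these samples only.

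Prox1 itself had 72.7 and 61.6 normalized counts under the Prox1 KO label and 60.6 and 25.5 in the controls. It was therefore not lower under the KO label (log2 difference 0.75 ± 0.27 (SE, n = 2 per group), limma unadjusted p = 0.0142, adjusted p = 0.0936); counts over the whole gene do not check the deletion itself. The libraries held 42469031 to 48524008 reads on genes. Fibroblast markers such as Col1a1 were among the most abundant RNAs. The hepatocyte markers Alb and Afp were present in every library, but not all hepatocyte markers were. Of 12 listed, 8 were abundant enough to be tested. The others, Ambp, Ahsg, Tat and Cyp3a11, had means over all libraries of 1.7, 3.8, 1 and 1.5 normalized counts. Xist, the RNA of the inactive X chromosome, had 14495 and 13944 normalized counts in the replicate 1 libraries and 4.89 and 1.06 in the replicate 2 libraries. Replicate 1 thus held cells with an inactive X chromosome and replicate 2 hardly any. The replicates were therefore not repeat libraries of the same RNA, and same-numbered libraries of both groups shared their Xist state.

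In mammals, a methylated or unmethylated control region, set in the egg or the sperm, decides which parental copy of a neighbouring group of genes is transcribed. The zinc finger protein ZFP57 and its partner TRIM28 keep that methylation through early development. Several imprinted genes act on fetal growth: paternally expressed Igf2 drives it, and maternally expressed Igf2r, Grb10 and Cdkn1c restrain it. H19, Igf2, Dlk1, Mest, Plagl1, Peg3, Cdkn1c and Dcn are abundant in embryonic mesenchyme, and H19, Igf2 and Dlk1 are also made by the fetal liver and largely silenced after birth. Total RNA per gene was measured here, without a polymorphism that tells the parental copies apart, so the allele given beside each gene is textbook knowledge and not a result.

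Of the members whose RNA fell in the libraries labelled Prox1 KO, H19, Igf2, Mest and Usp29 carry microRNAs inside their transcribed span. The mature sequences in H19, Igf2 and Mest (RefSeq, GRCm38.p6) are printed to show which small RNAs these host transcripts hold. The seed, bases 2 to 8, is in capitals. Those in Usp29, miR-3099-5p and miR-3099-3p, are not printed. The RNA-seq did not measure mature microRNAs: the hairpin genes Mir675 and Mir335 were listed at 0 in every library, and Mir483 had between 0 and 8.8 normalized counts.
miR-675-5p (H19, chr7:142577112-142577133, minus strand): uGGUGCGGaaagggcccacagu
miR-675-3p (H19, chr7:142577078-142577099, minus strand): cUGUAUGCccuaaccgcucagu
miR-483-5p (Igf2, chr7:142654968-142654989, minus strand): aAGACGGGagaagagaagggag
miR-483-3p (Igf2, chr7:142654932-142654952, minus strand): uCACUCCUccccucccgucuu
miR-335-5p (Mest, chr6:30741314-30741336, plus strand): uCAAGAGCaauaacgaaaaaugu
miR-335-3p (Mest, chr6:30741354-30741375, plus strand): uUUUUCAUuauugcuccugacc
These 6 microRNAs have 6 different seeds. Across the tested members except Impact, which was left out, 45 mature microRNAs lay on the same strand within a member's span, 26 of them in Mirg. Among the 45, 1 seed was held by more than 1 microRNA.

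Of the 41 tested members, 13 (31.7%) differed between the libraries labelled Prox1 KO and the controls, against a background of 11.4% of all 15809 genes tested (limma on log2(normalized counts + 1) with the replicate number as a block, adjusted p under 0.05). Cdkn1c, Impact and Zrsr1 were higher, where 5.09% of all genes tested were called higher. H19, Igf2, Mest, Plagl1, Dlk1, Peg3, Usp29, Zim1, Sgce and Dcn were lower, where 6.29% of all genes were. H19, Igf2 and Mest had already been picked out of these data for their values, and the members were more abundant than most genes, with a median of 1400 normalized counts against 774 for all genes tested. The median log2 difference of the 41 members was -0.01 and that of all genes tested -0.002. The groups did not overlap for 19 of the 41 members, a share close to the 44.4% of all genes tested. In bulk RNA, fewer cells that express a gene and less RNA per cell cannot be told apart.

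edgeR on the recovered reads, which called 11.4% of all genes, called 13 members, the same 13. DESeq2, which called 3.83% of the genes with an adjusted p, called 6 of them: H19, Igf2, Mest, Cdkn1c, Peg3 and Zim1. Without the replicate block, limma called 0 members, with 10 at an unadjusted p under 0.05, and 0 of all genes. Every limma call below therefore rests on comparing libraries within replicate number. Each SE given is limma's, which borrows the spread of other genes at a similar level. A gene's own spread can be larger.

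**Figure D1:**
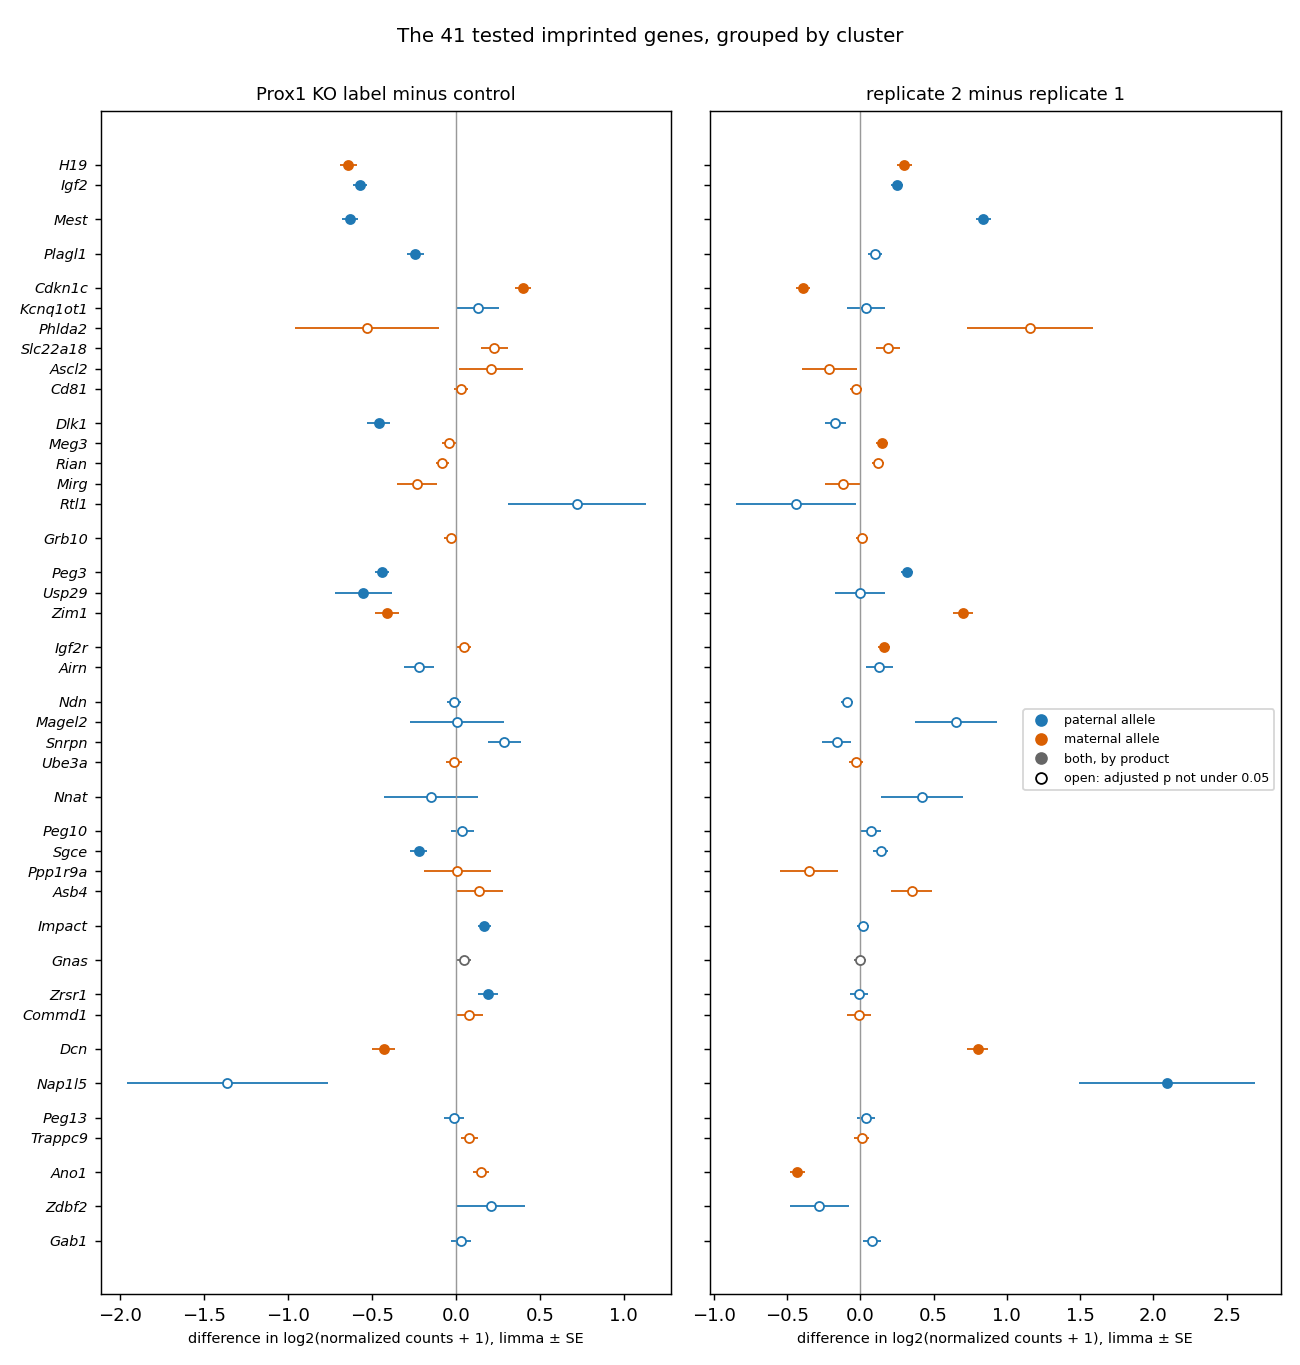
The 41 tested imprinted genes, grouped by cluster, with the limma difference in log2(normalized counts + 1) and its SE for Prox1 KO label minus control (left) and replicate 2 minus replicate 1 (right). Filled points have an adjusted p under 0.05, colours give the expressed parental allele, and both the 10 lower and the 3 higher members on the left come from several clusters.

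By parental allele, 9 of 21 paternally expressed members were called, 2 higher and 7 lower, and 4 of 19 maternally expressed members, 1 higher and 3 lower. The difference between the 2 alleles was not tested. Gnas, whose products differ in the allele they use, was not called. Among genes imprinted in most tissues 12 of 31 were called (38.7%), and among those imprinted only in some tissues 1 of 9 (11.1%), which was Dcn. Over all genes tested the share was 11.4%, close to the second of these, and the difference between the classes was not tested. The called genes in these counts include H19 (maternal), Igf2 and Mest (both paternal), all imprinted in most tissues. They had been picked out of these data for their values, which raises the shares of the classes they belong to. Called members lay in 10 of the 20 clusters with a tested gene. The clusters held 1 to 6 tested members, and a larger cluster has more chances of a call. No share over all genes was computed for this count.

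At the H19/Igf2 cluster, which is shared by a maternally expressed long noncoding RNA and a paternally expressed fetal growth factor, both genes fell. H19 had 146928 and 186828 normalized counts under the KO label (replicates 1 and 2) and 236453 and 281334 in the controls. Both KO-labelled libraries lay below both controls, and the log2 difference was -0.64 ± 0.05 (SE, n = 2 per group, limma adjusted p = 1.72e-06). Per kilobase of exon H19 was the most abundant member, with 105000 normalized counts in the controls, and it held 0.329% and 0.415% of all reads on genes in the KO-labelled libraries and 0.531% and 0.622% in the controls.

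Igf2 had 5194 and 5914 normalized counts against 7374 and 9155 in the controls. Here too the groups did not overlap, and the log2 difference was -0.57 ± 0.04 (limma adjusted p = 9.66e-07). In each library H19 was between 4.82 and 5 log2 units above Igf2. This log2 ratio differed between the groups by -0.07 (exact permutation p = 0.667, two-sided, where 2 libraries against 2 cannot go below 0.333). The permutation, used for all ratios below, exchanged the 4 libraries freely and did not keep the replicate pairs. No ratio was tested within replicate number. Of Igf2's exon bases, 62.83% overlap Gm49394 on the same strand, which itself had 3.7 to 8.5 normalized counts. How reads in the overlap were counted is not stated, so the level of Igf2 and its distance from H19 are uncertain.

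Igf2r, the receptor that takes IGF2 to the lysosome, had 42986 and 46999 normalized counts under the KO label and 40854 and 46398 in the controls. These values overlapped, and the log2 difference was 0.05 ± 0.04 (limma adjusted p = 0.552). The log2 ratio of Igf2r to Igf2 was 3.05 and 2.99 under the KO label and 2.47 and 2.34 in the controls. The difference of 0.61 had the smallest p that an exact permutation of 2 against 2 gives, 0.333. Airn, the paternally expressed RNA antisense to Igf2r, had 413 and 476 against 506 and 525 normalized counts, without overlap but with a limma adjusted p of 0.15 (log2 difference -0.22 ± 0.09).

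**Figure D2:**
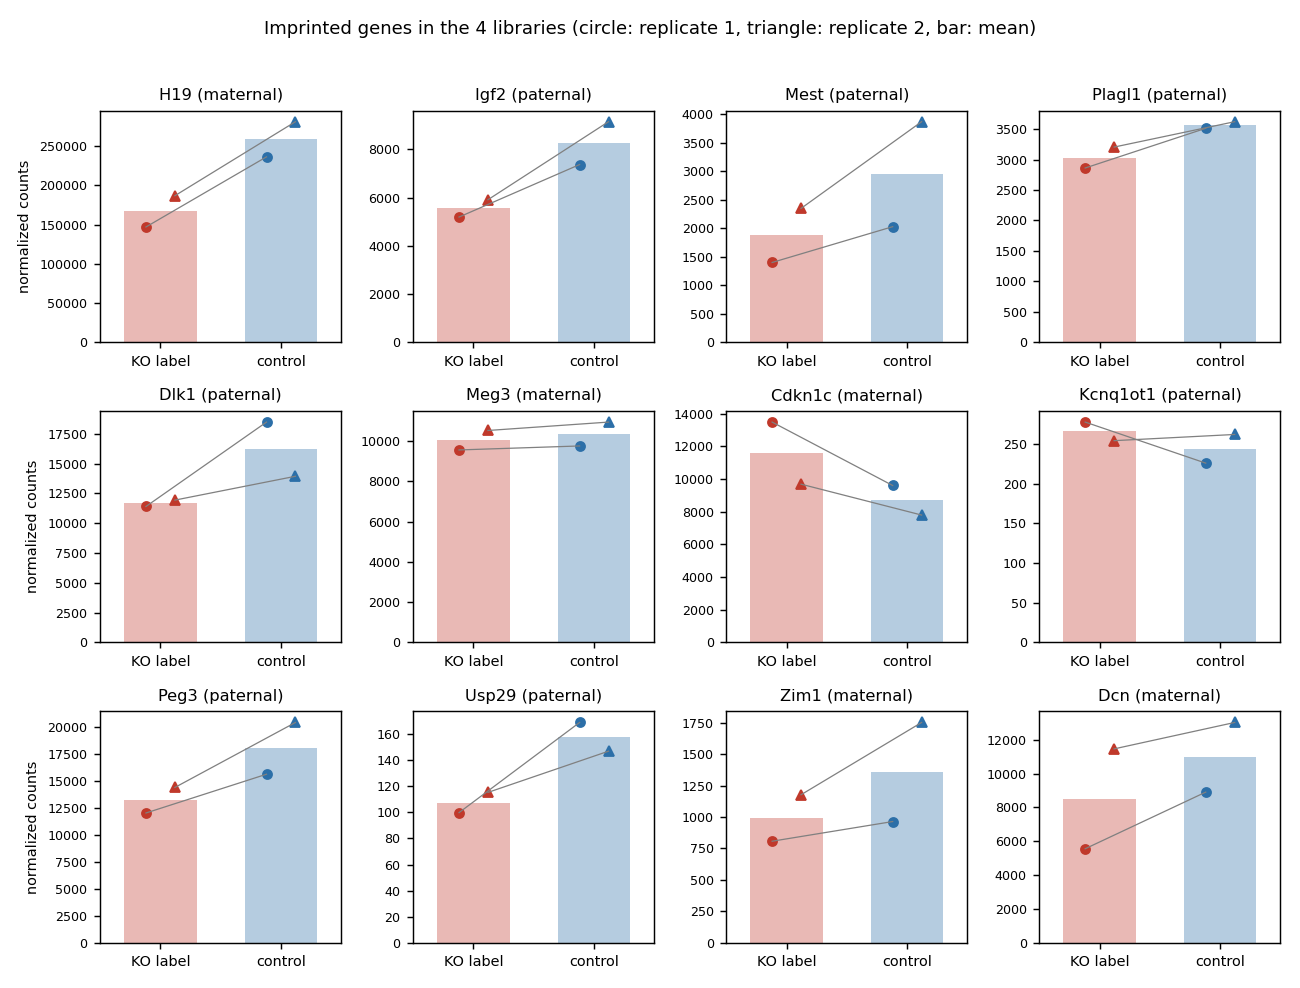
Normalized counts of 12 imprinted genes in the 4 libraries, on linear axes from 0; red, libraries labelled Prox1 KO; blue, controls; circles, replicate 1; triangles, replicate 2; bars, group means; grey lines join the libraries of 1 replicate number. H19, Igf2 and Peg3 lie lower in both KO-labelled libraries than in either control, Cdkn1c lies higher, and Mest, Zim1 and Dcn are lower within each replicate number although the groups overlap.

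Mest, a paternally expressed alpha/beta hydrolase also called Peg1, had 1398 and 2347 normalized counts under the KO label and 2026 and 3869 in the controls. The groups overlapped because replicate 2 was higher than replicate 1 in both, but within each replicate number the KO-labelled library was lower. The log2 difference was -0.63 ± 0.05 (limma adjusted p = 3.09e-06). Of 100-base windows of the Mest transcript, 31.68% also occur in other genes, chiefly the antisense gene Copg2, which had a log2 difference of 0.03 ± 0.05.

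Plagl1, also called Zac1, is a paternally expressed zinc finger factor known to bind enhancers that H19 and Igf2 share. It had 2863 and 3207 normalized counts under the KO label and 3516 and 3625 in the controls. The groups did not overlap, and the log2 difference was -0.24 ± 0.05 (limma adjusted p = 0.00416). The DESeq2 adjusted p was 0.0811.

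The promoter windows of Mest and Plagl1 are printed because both genes fell and both windows hold TGCCGC, the 6-base core that ZFP57 binds when it is methylated. They run from 250 bases before to 50 bases after the start (RefSeq, GRCm38.p6), and matches on either strand, TGCCGC or its complement GCGGCA, are in capitals.
Mest (chr6:30737800-30738099, plus strand): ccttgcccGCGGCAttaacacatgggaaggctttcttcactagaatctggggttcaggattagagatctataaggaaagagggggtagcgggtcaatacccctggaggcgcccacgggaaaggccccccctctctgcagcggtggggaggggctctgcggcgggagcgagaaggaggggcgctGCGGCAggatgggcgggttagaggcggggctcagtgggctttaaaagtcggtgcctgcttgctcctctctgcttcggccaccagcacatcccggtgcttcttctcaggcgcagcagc
Plagl1 (chr10:13090582-13090881, plus strand): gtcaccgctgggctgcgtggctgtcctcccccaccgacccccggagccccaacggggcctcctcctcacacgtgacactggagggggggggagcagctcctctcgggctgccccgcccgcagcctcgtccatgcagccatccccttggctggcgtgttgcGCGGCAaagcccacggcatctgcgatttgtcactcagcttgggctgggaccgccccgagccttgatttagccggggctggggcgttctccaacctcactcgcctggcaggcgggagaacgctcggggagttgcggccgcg
The Mest window held 2 matches and 17 CG dinucleotides, and the Plagl1 window 1 match and 26 CG dinucleotides. In the table of promoter windows, 11.6% of 32851 windows held TGCCGC, against 12 of 50 windows (24.0%) of 32 tested members. The matches were in 5 of 13 windows of called members, at Igf2, Mest, Plagl1 and Zim1, and in 7 of 37 windows of members that were not called. Mest was counted through windows that start at 30737800 and 30737803 and so hold the same matches. GGGCGG, the GC box, was in 27 of the 50 windows (54.0%) and in 35.7% of all windows, and TATAAA was in 11 (22.0%) and in 13.6%. TGCCGC and GGGCGG each hold a CG, and the member windows were richer in CG dinucleotides, with a median of 15.5 against 7.0. The part of this in the shares was not tested. A member can have several windows that overlap, so windows are not independent, and a match says only that these letters are there. There was no entry for H19, Cdkn1c, Dcn, Sgce, Impact, Peg10, Rtl1, Peg13 or Trappc9.

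At the Dlk1/Meg3 cluster the paternally expressed Dlk1, a Notch-like membrane protein of progenitor cells, fell. Dlk1 had 11404 and 11939 normalized counts under the KO label and 18483 and 13939 in the controls. Both KO-labelled libraries lay below both controls, and the log2 difference was -0.46 ± 0.07 (limma adjusted p = 0.000641). It was -0.70 in replicate 1 and -0.22 in replicate 2, so its size depends on the replicate. With DESeq2 the SE was 0.28 and the adjusted p 0.614.

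The maternally expressed noncoding RNAs of the same cluster were not called. Meg3 had 9560 and 10526 normalized counts under the KO label and 9758 and 10943 in the controls, with a log2 difference of -0.04 ± 0.04 (limma adjusted p = 0.563). Rian, which hosts small nucleolar RNAs, had 5369 and 5910 against 5732 and 6151 (log2 difference -0.08 ± 0.04, limma adjusted p = 0.286). Mirg, the microRNA host, had 224 and 203 against 260 and 242, without overlap (log2 difference -0.23 ± 0.12, limma adjusted p = 0.279).

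Rtl1, a paternally expressed protein derived from a retrotransposon, was near the detection limit with 24.9 and 14.7 against 11.9 and 10.6 normalized counts, which are 10 to 24 reads per library (log2 difference 0.72 ± 0.41, limma adjusted p = 0.316). The log2 ratio of Dlk1 to Meg3 was 0.25 and 0.18 under the KO label and 0.92 and 0.35 in the controls, a difference of -0.42 without overlap (exact permutation p = 0.333, two-sided, the smallest possible). The log2 ratio of Rian to Meg3 stayed between -0.83 and -0.77 in the 4 libraries. Its difference of only -0.03 had the same exact permutation p, 0.333.

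**Figure D3:**
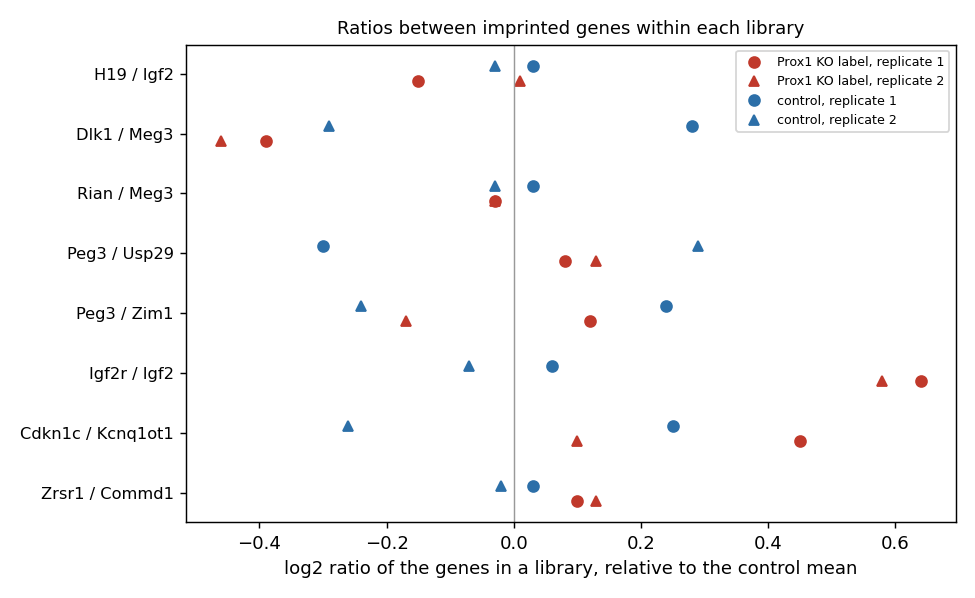
Log2 ratio between 2 imprinted genes within each library, shown relative to the mean of the controls; red, libraries labelled Prox1 KO; blue, controls; circles, replicate 1; triangles, replicate 2. The KO-labelled libraries lie apart from the controls for Dlk1 to Meg3 (lower), Igf2r to Igf2 (higher) and Zrsr1 to Commd1 (higher), while the points of Peg3 to Usp29 and Peg3 to Zim1 mix.

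All 3 tested genes of the Peg3 cluster fell, whichever allele they use. Peg3, a large paternally expressed zinc finger protein, had 12046 and 14416 normalized counts under the KO label and 15643 and 20444 in the controls. The groups did not overlap, and the log2 difference was -0.44 ± 0.04 (limma adjusted p = 6.33e-06).

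Usp29, a ubiquitin protease whose start lies 164 bases from that of Peg3 on the opposite strand, had 99.8 and 115 normalized counts against 169 and 147. The groups were apart, with a log2 difference of -0.55 ± 0.17 (limma adjusted p = 0.0462) that was -0.75 in replicate 1 and -0.35 in replicate 2. This call is close to the threshold: the adjusted p was 0.0515 with a pseudocount of 10, 0.113 after quantile normalization and 0.628 with DESeq2. Of its transcript windows 32.62% also occur in other genes, chiefly Zim3, which was listed at 0.

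Zim1, the maternally expressed zinc finger gene of the cluster, had 807 and 1177 normalized counts against 964 and 1751. Replicate 2 was higher than replicate 1 in both groups and the groups overlapped, but each KO-labelled library was below its control. The log2 difference was -0.41 ± 0.07 (limma adjusted p = 0.00171), with -0.26 in replicate 1 and -0.57 in replicate 2.

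In the Kcnq1ot1 cluster 1 of 6 tested members was called (16.7%, beside 11.4% of all genes tested). Cdkn1c, the maternally expressed cyclin-dependent kinase inhibitor that holds cells out of division, had 13491 and 9690 normalized counts under the KO label and 9609 and 7800 in the controls. The lowest KO-labelled library was just above the highest control, and the log2 difference was 0.40 ± 0.05 (limma adjusted p = 3.46e-05). Gm44732, an antisense gene that shares sequence with 21.81% of the Cdkn1c windows, rose as well, from 63.3 and 42.6 to 140 and 72.3 normalized counts (log2 difference 0.94 ± 0.21, limma adjusted p = 0.00884). The libraries kept strand, but whether the counting used it is not stated, so reads of the 2 genes cannot be told apart with certainty.

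Kcnq1ot1, the paternally expressed noncoding RNA of this cluster, had 277 and 254 normalized counts against 226 and 262 (log2 difference 0.13 ± 0.13, limma adjusted p = 0.598). Slc22a18, a maternally expressed transporter, had 630 and 725 against 540 and 611, a log2 difference of 0.23 ± 0.08 that missed the threshold (limma adjusted p = 0.0681, and 0.0499 when all detected genes were tested). Phlda2, which limits placental growth, had 6.2 and 20.5 against 12.9 and 22.4 (log2 difference -0.53 ± 0.43, limma adjusted p = 0.5). The groups overlapped for Kcnq1ot1 and Phlda2 and were apart for Slc22a18.

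Ascl2, a trophoblast transcription factor, had 99.8 and 87.0 normalized counts under the KO label and 87.2 and 74.5 in the controls (log2 difference 0.21 ± 0.19, limma adjusted p = 0.567). Cd81, an abundant tetraspanin, had 35118 and 33527 against 33602 and 33829 (log2 difference 0.03 ± 0.04, limma adjusted p = 0.767). Neither was separated between the groups.

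At the Peg10/Sgce cluster, Sgce fell and the divergently transcribed Peg10 was not called. Sgce, the paternally expressed epsilon-sarcoglycan of the cell membrane, had 1410 and 1565 normalized counts against 1659 and 1810 in the controls. The groups did not overlap (log2 difference -0.22 ± 0.05, limma adjusted p = 0.0148), although the DESeq2 adjusted p was 0.344. Peg10, a gag-like protein from a retrotransposon, had 898 and 873 against 804 and 917 (log2 difference 0.04 ± 0.07, limma adjusted p = 0.776).

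The maternally expressed genes of that cluster gave mixed pairs. Asb4, a SOCS box protein, had 329 and 326 normalized counts under the KO label and 231 and 381 in the controls, higher in replicate 1 and lower in replicate 2 (log2 difference 0.14 ± 0.14, limma adjusted p = 0.607). Ppp1r9a, the actin-binding neurabin, had 91.4 and 74.3 against 94.6 and 71.3 (log2 difference 0.01 ± 0.20, limma adjusted p = 0.992).

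Impact and Zrsr1, both paternally expressed, rose by small amounts. Impact, which restrains the amino-acid-sensing kinase GCN2, had 6421 and 6599 normalized counts under the KO label and 5806 and 5797 in the controls. The groups were well apart relative to their spread (log2 difference 0.17 ± 0.04, limma adjusted p = 0.0157), but the DESeq2 adjusted p was 0.18. Zrsr1, a retrogene related to the splicing factor U2AF, had 1508 and 1474 against 1306 and 1316 (log2 difference 0.19 ± 0.06, limma adjusted p = 0.048). Its adjusted p was 0.0536 with a pseudocount of 10, 0.0557 after quantile normalization, 0.0542 with TMM scaling and 0.607 with DESeq2. Commd1, the gene whose intron holds Zrsr1, had 695 and 665 against 633 and 656 (log2 difference 0.08 ± 0.08, limma adjusted p = 0.601).

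Dcn encodes decorin, a proteoglycan of the extracellular matrix that is maternally expressed in placenta and expressed from both copies in many other tissues. It had 5559 and 11456 normalized counts under the KO label and 8904 and 13017 in the controls. The groups overlapped, and the log2 difference was -0.43 ± 0.07 (limma adjusted p = 0.00135), with -0.68 in replicate 1 and -0.18 in replicate 2. With DESeq2 the SE was 0.25 and the adjusted p 0.557. Lum, the lumican gene next to Dcn, was not among the imprinted genes listed. It fell further, from 4043 and 4736 to 1761 and 3064 normalized counts (log2 difference -0.91 ± 0.09, limma adjusted p = 5.68e-06).

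Ano1 and Nap1l5 are given for their difference between replicates. Ano1, a chloride channel, had 2925 and 2067 normalized counts under the KO label and 2505 and 1960 in the controls (log2 difference 0.15 ± 0.05, limma adjusted p = 0.0795). Nap1l5, a retrogene of the nucleosome assembly family, had 1.0 and 23.5 against 13.8 and 21.3, which is 1 read in the first library (log2 difference -1.36 ± 0.60, limma adjusted p = 0.18).

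The 11 members not yet described had log2 differences between -0.15 (Nnat) and 0.29 (Snrpn), and none was called. Snrpn, which encodes the neuronal splicing protein SmN, came closest, with 433 and 385 normalized counts against 350 and 317 and no overlap (log2 difference 0.29 ± 0.10, limma adjusted p = 0.0712). Its adjusted p was 0.0422 after quantile normalization and 0.0441 when all detected genes were tested. Ndn, Magel2 and Ube3a of the same cluster had differences of -0.01, 0.01 and -0.01. Grb10, the adaptor that restrains insulin and IGF receptors, had 16594 and 16391 against 16650 and 17065 normalized counts, a log2 difference of -0.03 ± 0.04 (limma adjusted p = 0.687). Gnas, the stimulatory G protein alpha subunit, had a difference of 0.05 ± 0.04, Trappc9 0.08 ± 0.05, Peg13 -0.01 ± 0.06, Gab1 0.03 ± 0.06 and Zdbf2 0.21 ± 0.20. A limma p above the threshold does not show that these genes were equal in the groups.

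Between the replicate numbers, 11 of the 41 members (26.8%) differed, against 7.88% of all genes tested (the replicate term of the same limma fit). The replicate numbers also differed in Xist, and the part of the source of the cells in these differences was not tested. Higher in replicate 2 were H19, Igf2, Mest, Meg3, Peg3, Zim1, Igf2r, Dcn and Nap1l5, and lower were Cdkn1c and Ano1. The smallest p was that of Mest, with a log2 difference of 0.84 ± 0.05 (limma adjusted p = 6.98e-08), which was 0.75 between the KO-labelled libraries and 0.93 between the controls. Dcn differed by 0.80 ± 0.07 (limma adjusted p = 4.89e-06; 1.04 under the KO label and 0.55 in the controls) and Zim1 by 0.70 ± 0.07 (limma adjusted p = 1.56e-05).

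Smaller replicate differences were 0.32 ± 0.04 for Peg3, 0.30 ± 0.05 for H19, 0.25 ± 0.04 for Igf2, 0.16 ± 0.04 for Igf2r and 0.15 ± 0.04 for Meg3. Cdkn1c differed by -0.39 ± 0.05 and Ano1 by -0.43 ± 0.05 (limma adjusted p = 4.16e-05 and 6.41e-05). The difference of Nap1l5, 2.09 ± 0.60, was 3.58 under the KO label and 0.59 in the controls and rests on the library with 1 read.

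H19, Igf2, Mest, Cdkn1c, Peg3, Zim1 and Dcn passed the threshold in both terms of the fit. In all 7 the sign of the KO term was the opposite of the sign of the replicate term: 6 were lower under the KO label and higher in replicate 2, and Cdkn1c the reverse. The library with the lowest Mest, Peg3, Zim1, H19, Igf2 and Dcn and the highest Cdkn1c was therefore the KO-labelled library of replicate 1 in each case. Both terms come from the same 4 libraries, so this is a description of them.

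Of 24 genes listed as imprint regulators, Zhx2 among them, 21 were tested and 2 were lower (9.52% called, beside 11.4% of all genes tested). Zfp57 had 677 and 685 normalized counts under the KO label and 817 and 824 in the controls, without overlap (log2 difference -0.27 ± 0.07, limma adjusted p = 0.0248). Ezh2, the histone H3 lysine methyltransferase of the Polycomb complex, had 241 and 223 against 319 and 320 (log2 difference -0.46 ± 0.11, limma adjusted p = 0.0158). The median log2 difference of the 21 was -0.01, beside -0.002 for all genes tested, and Ctcfl was listed at 0.

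Among 34 further imprinted genes, 23 were tested, 2 were higher and 2 lower (17.4% called, beside 11.4% of all genes tested), with a median log2 difference of 0.01. Slc38a4, a paternally expressed amino acid transporter, fell from 808 and 1154 to 579 and 753 normalized counts (log2 difference -0.55 ± 0.07, limma adjusted p = 0.000154), and like H19 and Igf2 it was higher in replicate 2 (0.45 ± 0.07). Dhcr7, an enzyme of cholesterol synthesis, fell by 0.26 on the log2 scale. Pon2, an antioxidant lactonase near Peg10, rose by 0.23 ± 0.05 (limma adjusted p = 0.00309), and Cobl, an actin nucleator near Grb10, by 0.29 ± 0.09 (limma adjusted p = 0.0494).

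Of 15 partners of IGF2, which are the related ligand IGF1, receptors, downstream adaptors, secreted IGF binding proteins and proteins that bind Igf2 mRNA, 14 were tested, 1 was higher and 4 were lower (35.7% called, beside 11.4% of all genes tested; median log2 difference 0.005). Igfbp4 fell from 23757 and 24557 to 17217 and 17915 normalized counts, without overlap (log2 difference -0.46 ± 0.04, limma adjusted p = 2.56e-06). Igfbp5 fell from 29443 and 34097 to 21250 and 26003 (log2 difference -0.43 ± 0.04, limma adjusted p = 5.68e-06). Igf1 was lower by -0.42 ± 0.11 and Igfbp3 by -0.18 ± 0.05, both with a limma adjusted p near 0.02 (0.0222 and 0.0229). The insulin receptor substrate Irs2 was higher by 0.21 ± 0.05 (limma adjusted p = 0.0119). The secreted binding proteins, the Igfbp genes, hold IGF outside cells and can restrain or prolong its action. Igf2bp1, Igf2bp2 and Igf2bp3, which bind Igf2 mRNA, were not called.

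The nearest tested protein-coding neighbours of the members, within 500 kb on each side, were called in 3 of 31 cases (9.68%), a share no higher than that of all genes. Members and the further imprinted genes listed above were left out as neighbours. Whether each remaining neighbour is imprinted was not checked. Besides Lum, Fam13a next to Nap1l5 was lower by -0.32 ± 0.07 and Pdk4, the pyruvate dehydrogenase kinase near Asb4 and Ppp1r9a, was higher by 0.13 ± 0.04. The neighbours of H19, Igf2, Mest, Plagl1, Dlk1, Peg3 and Cdkn1c that could be tested were not called.

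Markers of cell state moved beside the members, and their counts are to be read beside the 11.4% of all genes called. Of 10 proliferation genes, 8 were lower under the KO label, from Pcna (-0.19) to Ccnb1 (-1.06), and Rrm2 was higher (0.65). Their summed level was 10692 to 12384 normalized counts under the KO label and 9798 to 10630 in the controls, a sum that Rrm2 dominates. Of 12 hepatocyte markers, 8 were tested and 6 were lower, from Afp (-0.22) to the transferrin gene Trf (-1.30), and the sum was 16102 to 17530 against 21502 to 21964. Of 11 fibroblast markers, Col3a1 (-0.43), Pdgfra (-0.48) and Postn (-0.35) were lower, and the sum was 1028431 to 1202382 against 1128376 to 1288324.

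Other cell types gave few tested markers. Of 9 muscle markers, 4 were tested and Des was higher (0.36), with sums of 1883 to 1965 under the KO label and 1496 to 1555 in the controls. Of 6 endothelial markers, 3 were tested and Kdr was higher (0.67), with sums of 949 to 1070 against 647 to 752. Of 8 neural markers, 4 were tested and Map2 was higher (0.28), with sums of 4416 to 4995 against 3824 to 4096. Of 7 macrophage markers, 3 were tested and none was called, with sums of 310 to 360 against 290 to 307, and Adgre1 was listed at 0. The part of the cell types and of proliferation in the levels of the imprinted genes was not tested.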

How the data were processed

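RNA-seq was available for 4 libraries, grouped as Prox1 KO and control with replicates 1 and 2 from the sample labels. Strand-preserving dUTP libraries were read at both ends (100 bases), and the authors aligned them to mm10 by STAR. What they deposited is a signal for each gene: its reads over the size factor DESeq2 gives the library. The counting tool, its use of strand and the annotation release are not given in the sources used here. Within a library all values above 0 were whole multiples of the lowest one (100% within 0.01), which gave back the reads, 42469031 to 48524008 per library, with size factors from 0.939 to 1.09. A deposited table of the authors' own DESeq2 comparison, with p-values and fold changes, was not used.

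The test was limma 3.58.1 (R 4.3.3) with an intensity trend and a block for replicate number, run on log2(normalized counts + 1) of the 15809 genes whose mean reached 10. P-values were Benjamini-Hochberg adjusted over all of them, with a threshold of 0.05. The added 1 shrinks changes of low genes. The block was taken from the study's methods, where the MEF line is a covariate. No source says that replicate numbers stand for lines, but same-numbered libraries shared their Xist state. Deviations of same-numbered libraries from their group means correlated across genes, which are not independent, at 0.402, and at 0.331 over autosomal genes. Same-group libraries differed beyond sampling noise in 34.3% (KO) and 35.4% (control) of genes, so none was a duplicate. Alternatives were no block, other pseudocounts (0.1, 10), filters and scalings, edgeR 4.0.16 and DESeq2 1.42.0 on recovered reads, and each replicate left out. DESeq2's independent filtering was first run at the tool's default level of 0.1 and then set to 0.05, the threshold used, after its count of called genes had been seen; both counts are given below. The scripts were tested on simulated data.

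The members, their clusters and the 10 gene lists were chosen with earlier results of these data known. Full values are given for members with an adjusted p under 0.05 in either term of the fit and for the other tested members of their clusters, and the rest by ranges and counts, with examples chosen after their values were seen; of lists and neighbours, genes under 0.05 are named. Annotation is GENCODE vM21 on GRCm38, which 55137 of 55397 identifiers matched; sequences are from RefSeq (GRCm38.p6), with promoter windows for 32 tested members.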

Additional observations from a re-analysis of the deposited data

How the results depend on the processing

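Of the 13 members called, 13 were also called with a pseudocount of 0.1, with all detected genes, with a minimum mean of 50 and with edgeR, 12 with TMM scaling, 11 with a pseudocount of 10 and 11 after quantile normalization. With all detected genes 15 members were called, the others being Snrpn and Slc22a18, and after quantile normalization 12, with Snrpn. Testing all detected genes gave far smaller limma adjusted p-values than the main fit for H19 (6.89e-61) and Dlk1 (2.66e-26). A pass under that setting therefore adds little. No called member changed direction under any alternative, and each kept its sign within either replicate pair alone. Without the replicate block, limma called 0 members, 0 genes of the lists (32 with the block), 0 neighbours (3 with the block) and 0 of all genes (1798 with the block), with 10, 26, 5 and 1783 at an unadjusted p under 0.05. DESeq2 with the block called 6 members, 12 list genes, 1 neighbour and 483 of all genes; at its default filter level of 0.1, which was run first, it called 6, 12, 1 and 471, and the level of 0.05 behind the counts before was chosen after seeing these data. The causes were not tested. TMM scaling called 5 neighbours. Quantile normalization shifted the median log2 difference of all genes by 0.01. With 1 pair of libraries no test was possible, so leaving out a replicate gave no counts. The main limits are 2 libraries per group, the need for the block, and few reads for Rtl1, Phlda2 and Nap1l5.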
